A study of Mus musculus with 6 samples.

Results

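Described here, in cultures of mouse osteocytes, are 10 receptor genes by which macrophages take up particles, modified lipoproteins, apoptotic cells and soluble ligands: Marco, Msr1, Stab1, Scarb1, Lyve1, Timd4, Folr2, Colec12, Mertk and Axl. They are a named list, matched to the table by gene symbol, and all 10 were found among the 56748 genes of the count table. Of the 10, 9 had enough reads for a test and Timd4 did not.

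The measurements were bulk RNA-seq libraries of primary osteocytes, the cells that osteoblasts become once embedded in bone matrix. For the stimulated cultures the study's methods name C57BL/6J mice as the WT source. The age of 7 weeks is that of the osteocyte isolation method, which names C57BL/6 mice. There were 3 libraries labelled WT and 3 labelled cKO, the latter from Gsdmd fl/fl; Dmp1-Cre mice, in which a floxed Gsdmd is deleted by a Cre driven by the Dmp1 promoter, active in osteocytes and late osteoblasts. Gsdmd encodes gasdermin D, the pore-forming protein of pyroptosis. Every library came from cells grown for 7 days and then stimulated, first with 10 ng/mL LPS over 3 h and next with 20 µg/mL aluminum hydroxide (alum) over 3 h, so no unstimulated library was compared. The deletion is limited to cells in which this Cre has been active.

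Scavenger receptors are a structurally mixed group of surface proteins that bind polyanionic ligands such as oxidised or acetylated lipoproteins, bacterial walls and mineral particles, and bring them into the cell. A second group recognises phosphatidylserine on dying cells, either directly or through the bridging proteins Gas6 and protein S, and so serves the uptake of apoptotic cells. Bone marrow and other tissues hold resident macrophages that carry many of these receptors, but several of them are also made by stromal and endothelial cells.

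The libraries held between 39566835 and 49734046 reads assigned to genes. Levels are given as counts per 1000000 assigned reads (CPM), scaled by TMM factors, with the mean ± SD of the 3 libraries of a genotype. Nothing in the labels says that the libraries of a genotype came from separate animals or cultures, so the p-values measure the spread between these libraries only. Gsdmd itself, counted over the whole gene, stood at 13.9 ± 0.339 CPM in the WT libraries and 22.5 ± 1.33 CPM in those labelled cKO (log2 fold change 0.69, adjusted p = 2.27e-06, edgeR's quasi-likelihood test, Benjamini-Hochberg over 17146 genes), which goes against the label. The exons flanked by loxP sites are not named in the sources used here, so a count over the whole gene does not check the deletion. Xist had 4, 0 and 2 counts in the WT libraries and 48762, 44817 and 51216 in the cKO-labelled ones, while Ddx3y had 4785, 5455 and 4033 against 0 in each, although the study's methods state that mice were matched for sex. Genotype and sex of the source cannot be told apart in any comparison that follows.

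Markers of macrophages differed strongly between the genotypes. Of a list of 18, all 18 were higher in the cKO-labelled libraries, with a median log2 fold change of 3.02 (range 1.73 to 4.42), and their summed level was 1380, 1502 and 1537 CPM against 7775, 8104 and 8119 CPM. Lyz2, lysozyme, had the most reads of them at 986 ± 57.1 against 4518 ± 114 CPM, and none of the 18 was at 0. The largest log2 fold changes were those of Aif1 (4.42, from 6, 4 and 1 counts in WT), Fcgr1 (4.25) and Ms4a7 (3.80). Osteocyte markers were uneven: Sost and Dkk1 were at 0 in every library and Dmp1, Mepe, Phex and Fgf23 were too low to be tested, while Tnfrsf11b (483 ± 24.4 against 274 ± 5.47 CPM), Pdpn (234 ± 7.59 against 193 ± 3.57 CPM) and Fam20c (73.4 ± 3.05 against 100.3 ± 4.42 CPM) were well measured. Of the 6 osteocyte markers tested, 1 was higher (Fam20c) and 4 lower (Ptprz1, Tnfrsf11b, Kcnk2 and Pdpn), of which Ptprz1 lost its call without WT replicate 3 and Kcnk2 without any 1 of 4 libraries. The summed level of the 12 listed was 811 ± 23.0 against 586 ± 5.74 CPM, with Tnfrsf11b the gene with the most reads. A larger number of macrophages and more of each receptor's RNA per macrophage cannot be told apart in bulk libraries, and the part of the macrophage markers in the differences below was not tested beyond the ratios given later.

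In the cKO-labelled libraries 5 of the receptors were higher (Stab1, Folr2, Msr1, Mertk and Marco), 2 were lower (Axl and Colec12), 2 did not pass the test (Scarb1 and Lyve1) and Timd4 was not tested. Of all 17146 genes tested, 20.1% were higher and 19.2% lower at an adjusted p below 0.05, and the median log2 fold change of all genes was 0.01 against 1.12 for the 9 receptors. The 5 that rose all had a log2 fold change of at least 1, which held for 6.56% of all genes, whereas neither of the 2 that fell reached 1 in size, as 4.64% of all genes did. In 7 of the 9 the libraries of the genotypes did not overlap, against 49.2% of all genes tested. Of all tested genes, 99.2% had a lower log2 fold change than Stab1, 98.6% than Folr2, 98.5% than Msr1 and 97.8% than Mertk.

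**Figure D1:**
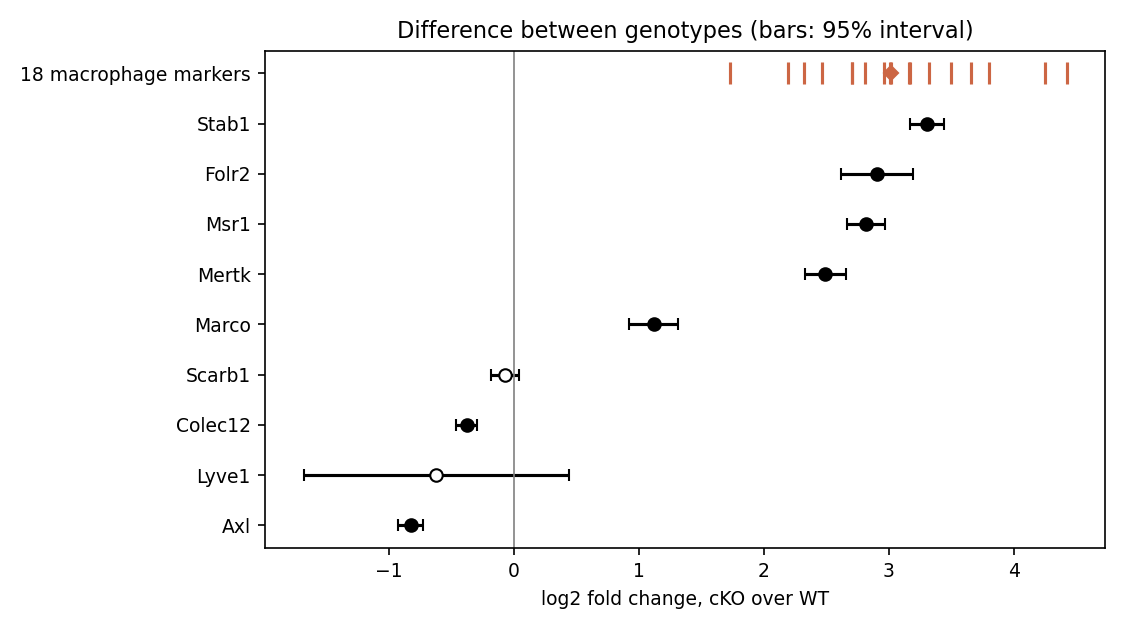
Log2 fold change (cKO-labelled over WT, edgeR) of the 9 tested receptors on the horizontal axis, with bars for the 95% interval, filled points for genes that passed the test and open points for those that did not; the top row marks each of the 18 macrophage markers with a tick and their median with a diamond. The plot runs from Axl at -0.82 to Stab1 at 3.31, and the marker median of 3.02 lies between Folr2 at 2.91 and Stab1.

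Start-site sequences from RefSeq (build GRCm38.p6, while the counts use mm39 coordinates) were matched for 6 of the 10 receptors, with windows from 250 bases before to 50 bases after the start. The stretches before the start are shown for 4 of them because they cover both directions of change: Marco, Stab1 and Mertk were higher and Axl lower in the cKO-labelled libraries. Each is written 5′ to 3′ on the gene's own strand up to the most upstream annotated transcript start, and capitals mark letters matching GAGGAAG, a core bound by the macrophage ETS factor PU.1, or TGCTGA, a core of the site bound by MAF factors. The positions are chr1:120505025-120505274 (minus strand) for Marco, chr14:31168642-31168891 (minus strand) for Stab1, chr2:128698665-128698808 (plus strand) for Mertk and chr7:25788905-25788983 (minus strand) for Axl.
Marco: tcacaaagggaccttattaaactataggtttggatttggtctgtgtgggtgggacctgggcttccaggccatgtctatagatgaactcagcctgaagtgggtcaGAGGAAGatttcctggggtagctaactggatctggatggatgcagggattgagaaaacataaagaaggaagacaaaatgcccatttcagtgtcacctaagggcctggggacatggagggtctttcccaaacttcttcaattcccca
Stab1: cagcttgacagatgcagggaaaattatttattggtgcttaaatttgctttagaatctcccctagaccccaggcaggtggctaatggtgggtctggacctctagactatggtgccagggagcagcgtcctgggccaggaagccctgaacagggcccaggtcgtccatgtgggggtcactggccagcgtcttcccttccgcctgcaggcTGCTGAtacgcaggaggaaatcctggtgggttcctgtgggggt
Mertk: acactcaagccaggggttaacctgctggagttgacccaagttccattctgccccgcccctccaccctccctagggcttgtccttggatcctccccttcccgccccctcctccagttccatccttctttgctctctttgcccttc
Axl: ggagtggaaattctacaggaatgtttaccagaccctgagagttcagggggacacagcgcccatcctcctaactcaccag

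Both strands of each 300-base window were searched for those letters, for TGAGTCA (the AP-1 site) and for CACGTG (an E-box). GAGGAAG occurred in 13.6% of the 32851 mouse windows, TGCTGA in 19.5%, TGAGTCA in 5.20% and CACGTG in 7.15%. The Marco window held GAGGAAG 146 bases before its start on the same strand, and the Axl window held it 131 bases before the start on the opposite strand, outside the stretch shown. TGCTGA lay 43 bases before the Stab1 start, and the Mertk window held none of the 4 motifs, although Stab1 and Mertk both rose. The windows of Folr2 and Timd4, not shown, both held TGCTGA, and one of the Folr2 windows also held TGAGTCA 74 bases before its start on the opposite strand. The G and C content was 47.3% for Marco, 57.3% for Stab1, 66.0% for Mertk and 60.3% for Axl, against a median of 52.7% over all windows. These are matches of letters in short windows and do not show binding.

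Among the class A scavenger receptors, Msr1 and Marco were higher and Colec12 was lower in the cKO-labelled libraries. Msr1, the receptor for acetylated low-density lipoprotein, lies on chromosome 8 at 40034726 to 40095714 (mm39, as all gene positions here) and stood at 29.2, 32.0 and 38.2 CPM in the WT libraries and 228.3, 235.5 and 236.9 CPM in the cKO-labelled ones. The lowest cKO-labelled library was far above the highest WT one, with means of 33.1 ± 4.61 and 233.6 ± 4.58 CPM, so that the spread relative to the mean was wider in WT (13.9% against 1.96%). The log2 fold change was 2.82 (SE 0.07), a 7.06-fold higher level with a 95% interval of 6.36 to 7.85, and the adjusted p from edgeR's quasi-likelihood test was 2.86e-15.

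Marco, a receptor for bacteria and inhaled or mineral particles, lies on chromosome 1 at 120402267 to 120432753. It stood at 9.24, 8.50 and 8.97 CPM in the WT libraries and 19.1, 20.1 and 18.9 CPM in the cKO-labelled ones, so the groups were separate but closer than for Msr1. The difference was 2.17-fold (log2 fold change 1.12, SE 0.09, 95% interval 0.93 to 1.31), with an adjusted p of 1.82e-08 by edgeR. It was the smallest rise among the 5 receptors that were called higher.

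Colec12, a collagen-containing lectin of the same class that endothelial and stromal cells make, was second to Axl per length in WT. It stood at 339.0, 356.1 and 361.9 CPM in the WT libraries and at 267.6, 272.5 and 275.1 CPM in the cKO-labelled ones. The groups did not overlap, and the cKO-labelled mean was 77.1% of WT (95% interval 72.8 to 81.7%, log2 fold change -0.37, SE 0.04, adjusted p = 4.88e-07, edgeR).

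**Figure D2:**
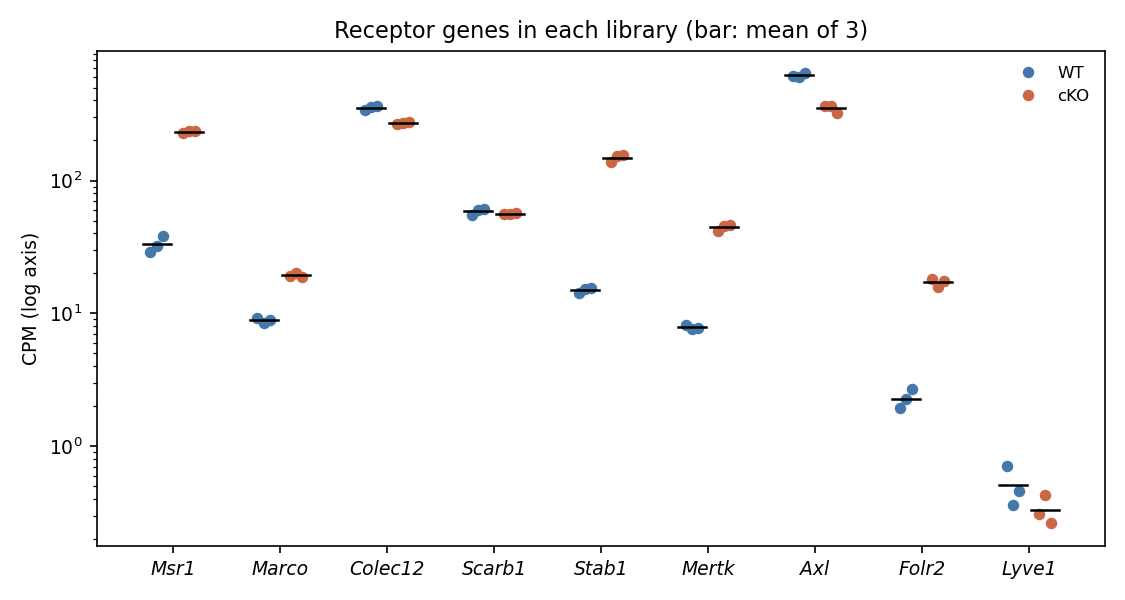
Level of 9 of the receptors in each of the 6 libraries, in CPM on a log axis, with one point per library and the mean of each genotype as a line; Timd4 is left out because it had no read. The points of the genotypes stand apart for every receptor except Scarb1 and Lyve1.

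Scarb1 and Stab1 bind lipoproteins and are unlike in structure. Scarb1, the high-density lipoprotein receptor SR-BI (chromosome 5, 125354151 to 125418158), stood at 55.0, 60.3 and 61.2 CPM in the WT libraries and 55.9, 55.8 and 56.5 CPM in the cKO-labelled ones. The groups overlapped, and the log2 fold change of -0.07 (SE 0.05, 95% interval -0.18 to 0.04) gave an adjusted p of 0.336 by edgeR, so a difference of more than about those bounds was not seen at this depth. With upper-quartile scaling it passed the test, as given in the closing section.

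Stab1, stabilin-1, takes up acetylated lipoprotein and the matrix protein SPARC and is carried by tissue macrophages and sinusoidal endothelium (chromosome 14, 30860970 to 30890598). It stood at 14.1, 15.4 and 15.5 CPM in the WT libraries and 136.8, 151.9 and 156.8 CPM in the cKO-labelled ones. This was the largest rise of the 9 tested receptors, 9.91-fold (95% interval 9.02 to 10.9, log2 fold change 3.31, SE 0.06, adjusted p = 1.30e-16, edgeR). Exons of the opposite-strand gene Nt5dc2 overlap 1.10% of its exon bases. Sparc, its ligand, stood at 4885 ± 76.4 CPM in WT and 3146 ± 41.5 CPM in the cKO-labelled libraries (adjusted p = 3.97e-12, edgeR), so ligand and receptor moved in opposite directions.

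Mertk and Axl belong, with Tyro3, to the TAM family of receptor tyrosine kinases that read phosphatidylserine through Gas6 and protein S. Mertk (chromosome 2, 128540876 to 128644814) stood at 8.22, 7.68 and 7.83 CPM in the WT libraries and 41.6, 45.8 and 46.2 CPM in the cKO-labelled ones. The groups were wide apart, 5.63-fold (95% interval 5.02 to 6.31, log2 fold change 2.49, SE 0.08, adjusted p = 3.28e-14, edgeR). Axl, bound by Gas6 (chromosome 7, 25456698 to 25488130), went the other way, at 606.8, 605.4 and 641.1 CPM in WT and 361.7, 364.1 and 321.4 CPM in the cKO-labelled libraries. The cKO-labelled mean was 56.5% of WT (95% interval 52.8 to 60.5%, log2 fold change -0.82, SE 0.05, adjusted p = 1.32e-10, edgeR).

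Tyro3, the third of the family, was also lower, at 26.0 ± 1.06 against 18.6 ± 0.274 CPM (log2 fold change -0.49, adjusted p = 3.55e-05, edgeR). Levels between genes are compared per length, in CPM per kilobase of gene length (RPKM). Axl exceeded Mertk by a factor of 67.4 ± 3.50 in the WT libraries and of 6.78 ± 0.756 in the cKO-labelled ones, with gene lengths as deposited. With the merged exon length of GENCODE M39, which is 9180 bases for Axl against 5033 deposited, the ratios were 40.9 ± 2.13 and 4.12 ± 0.460. By deposited lengths, Axl made up 95.3% of the summed TAM receptor RPKM in WT and 83.9% in the cKO-labelled libraries, with Mertk at 1.42% and 12.5%. Axl thus stayed the leading TAM receptor of both genotypes although Mertk gained. The summed RPKM of the family was 129 ± 4.13 in WT and 82.6 ± 4.52 in the cKO-labelled libraries.

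**Figure D3:**
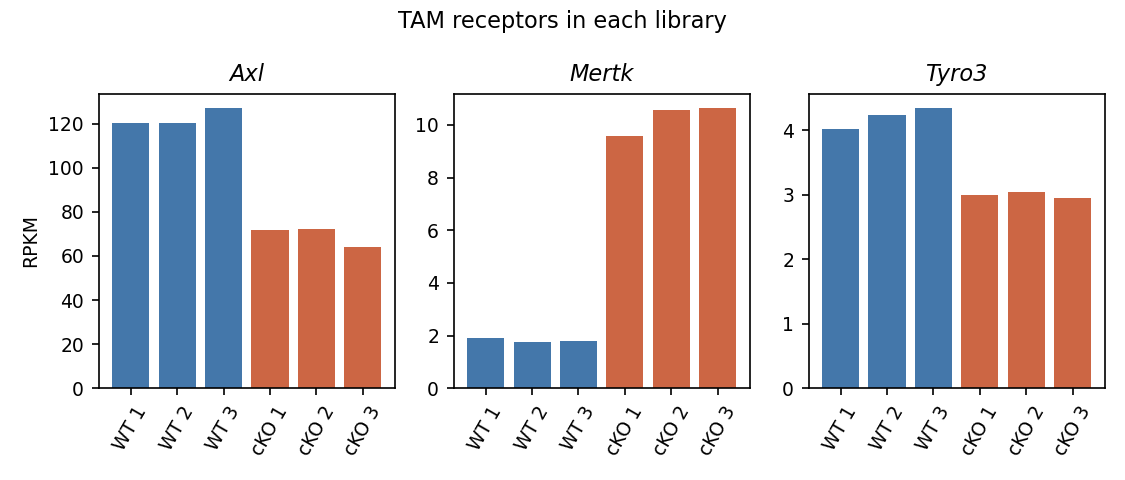
Level per length (RPKM) of each TAM receptor, with 1 bar per library from 0, WT on the left and cKO-labelled on the right of each panel, and a y scale of its own in each panel. Axl and Tyro3 are lower and Mertk is higher in the cKO-labelled libraries, and Axl is the most abundant in both genotypes.

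Of the bridging and ligand genes, Gas6 was higher in the cKO-labelled libraries (391.4 ± 15.9 against 531.7 ± 19.3 CPM, log2 fold change 0.44, adjusted p = 1.02e-07, edgeR), as was Lgals3, galectin-3, which can bind Mertk (450.8 ± 30.8 against 909.1 ± 16.1 CPM, log2 fold change 1.01, adjusted p = 3.77e-12). Pros1, protein S, stood at 144.1 ± 4.65 and 154.9 ± 3.18 CPM and did not pass the test (adjusted p = 0.0691), although with library size alone it was called higher (0.13). The other 2 ligands listed, Tub and Tulp1, were too low to be tested.

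Timd4, a phosphatidylserine receptor (chromosome 11, 46701627 to 46735159), is a marker of long-lived resident macrophages and had no read in any library. A count of 0 allows a level of up to 0.0605 to 0.0773 CPM, the value of 3 counts in the libraries of largest and smallest size after TMM scaling, counting error only. This bound takes each count as separate. It may be too low, because 63.4 to 65.7% of counts from 1 to 10 were even. Its RNA was not detectable at this depth in either genotype, while Folr2 and Mertk were measured in all 6 libraries.

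Folr2, the folate receptor of macrophages (chromosome 7, 101489195 to 101506401), stood at 1.93, 2.26 and 2.68 CPM in WT and 18.01, 15.9 and 17.6 CPM in the cKO-labelled libraries. The groups were separate, at 7.52-fold (95% interval 6.16 to 9.17, log2 fold change 2.91, SE 0.14, adjusted p = 8.76e-12, edgeR). Its level is uncertain because the opposite-strand non-coding gene Gm10602 covers 61.2% of its exon bases, 975 of 1593. The study's methods name a directional library kit, but the strand setting of the counting is not given in the sources used here. Gm10602 itself had 225, 211 and 107 counts in WT and 209, 251 and 244 in the cKO-labelled libraries, against 87, 112 and 104 and then 758, 631 and 798 for Folr2.

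Lyve1, a hyaluronan receptor of lymphatic endothelium and perivascular macrophages (chromosome 7, 110449814 to 110462446), was scarce. It had 32, 18 and 18 counts in WT and 13, 17 and 12 in the cKO-labelled libraries. The groups overlap in CPM, and the log2 fold change of -0.62 (95% interval -1.68 to 0.44, adjusted p = 0.367, edgeR) covers both directions, so no difference was detectable at this depth. Of 7 lymphatic endothelial markers 4 were tested, with Nrp2 higher and Flt4 and Pdpn lower. Over all tested genes the shares were 20.1% higher and 19.2% lower. Prox1 had 39, 72 and 52 counts in WT and 26, 31 and 22 in the cKO-labelled libraries and did not pass the test (adjusted p = 0.0532, edgeR). Pdpn is also among the osteocyte markers. Reln was too low to be tested, and Ccl21a and Mmrn1 were at 0.

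The order of the receptors by level per length differed between the genotypes. In WT, Axl was first at 123 RPKM, then Colec12 at 40.4, Scarb1 at 6.92, Msr1 at 5.22 and Marco at 4.63, with Mertk at 1.82, Folr2 at 1.48, Stab1 at 1.46 and Lyve1 at 0.176. In the cKO-labelled libraries Axl was again first at 69.4 RPKM, but Msr1 at 36.8 stood before Colec12 at 31.1, followed by Stab1 at 14.4, Folr2 at 11.1, Mertk at 10.3, Marco at 10.1, Scarb1 at 6.60 and Lyve1 at 0.114. Neighbours whose libraries overlapped were Msr1 with Marco and Folr2 with Stab1 in WT, and Folr2 with Mertk and Mertk with Marco in the cKO-labelled libraries. This order depends on the lengths: with merged exon lengths Axl was at 67.3 RPKM in WT and 38.0 ± 2.61 RPKM in the cKO-labelled libraries, where it overlapped Msr1 at 36.8, Scarb1 overlapped Msr1 and Mertk overlapped Folr2 in WT, where Stab1 at 1.46 came before Folr2 at 1.44, and Marco at 10.1 stood before Mertk at 9.26 in the cKO-labelled libraries. The summed CPM of all 10 was 1097 ± 37.6 in WT and 1140 ± 18.7 in the cKO-labelled libraries, with Axl the largest part of it.

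Set beside the macrophage markers, the 5 receptors that rose differed among themselves. Per 1000 summed counts of the 18 markers, Mertk was near level at 5.39 ± 0.493 in WT and 5.57 ± 0.191 in the cKO-labelled libraries, with overlapping libraries. Msr1 was at 22.4 ± 2.09 and 29.2 ± 0.160, Folr2 at 1.549 ± 0.176 and 2.15 ± 0.180, and Stab1 at 10.2 ± 0.100 and 18.6 ± 0.874, and for these the libraries did not overlap. Marco was lower on this scale, at 6.07 ± 0.556 and 2.42 ± 0.0810. The sum is dominated by Lyz2, whose log2 fold change of 2.20 was below the marker median, so a ratio to it runs higher than a ratio to a typical marker.

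**Figure D4:**
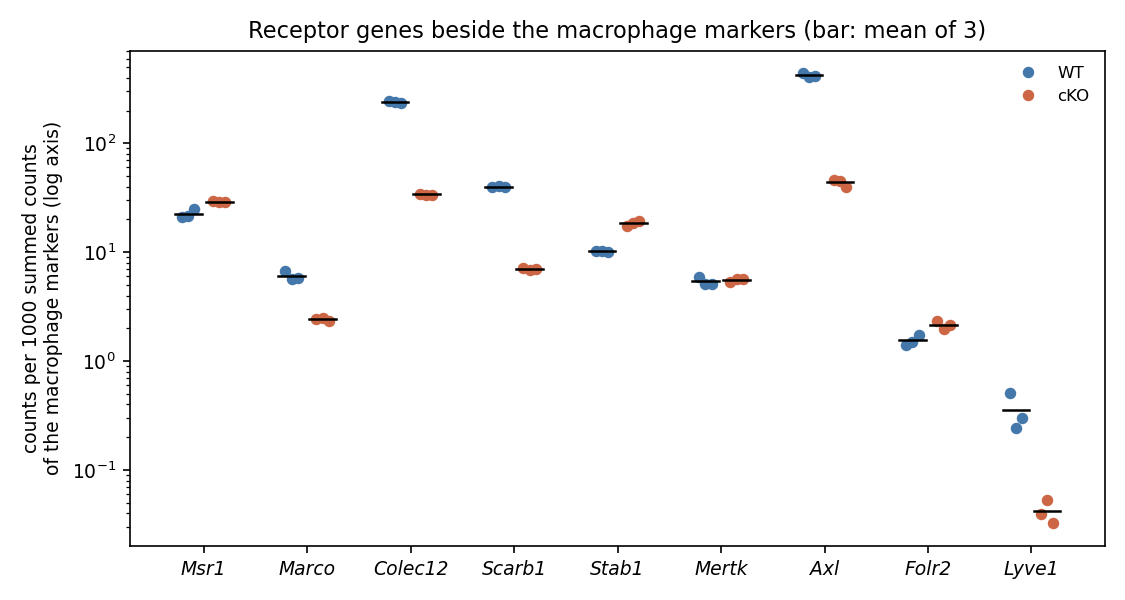
Counts of 9 receptors per 1000 summed counts of the 18 macrophage markers, on a log axis, with one point per library. Mertk overlaps between the genotypes, Msr1, Folr2 and Stab1 stand higher and the other 5 stand lower in the cKO-labelled libraries.

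By log2 fold change, 6 of the 18 markers rose more than Stab1, 11 more than Msr1 and 11 more than Folr2, 14 more than Mertk and all 18 more than Marco. Scarb1, Colec12 and Axl, which did not rise, had 40.0, 239 and 420 counts per 1000 marker counts in WT and 7.01, 34.0 and 43.7 in the cKO-labelled libraries. These values describe the same counts and were given no test of their own.

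Among 22 other scavenger receptors, 21 were tested, 13 were higher and 2 lower, with a median log2 fold change of 0.70. For this list and those below, the shares over all tested genes were 20.1% higher and 19.2% lower. Cd207, langerin, and Mrc1, the mannose receptor of macrophages, rose most (3.93 and 3.15), and Scara5, a ferritin receptor, also rose (2.92). Mrc1 stood at 32.9 ± 6.74 against 292 ± 16.0 CPM. Olr1, the receptor of oxidised lipoprotein, was lower at 14.1 ± 1.12 against 0.295 ± 0.188 CPM, and Megf10 at 6.97 ± 0.226 against 0.106 ± 0.0989 CPM. Lrp1, with the most reads, stood at 6880 ± 448 and 6717 ± 166 CPM and did not pass the test (adjusted p = 0.520, edgeR), although with upper-quartile factors it was called lower (-0.10). Cd163, a haemoglobin scavenger of macrophages, was too low to be tested.

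Of 35 genes of apoptotic cell uptake, 31 were tested, 13 were higher and 13 lower, with a median of -0.03, so the list did not move as one. The sizes were uneven: 11 were higher and 0 lower by a log2 fold change of at least 1. Over all tested genes those shares were 6.56% and 4.64%. The complement genes C1qa, C1qb and C1qc, whose protein coats dying cells, rose by 3.66, 3.50 and 3.32 on the log2 scale, while Jmjd6, Ptk2 and Itgb3 fell by 0.72, 0.61 and 0.53. Genes that handle lipoprotein lipid, 21 in all, had 17 higher and 1 lower, with a median of 0.94. Apoe (40.8 ± 2.00 against 275 ± 7.90 CPM), Cd36 (71.6 ± 4.69 against 419 ± 11.2 CPM) and Fabp5 (43.6 ± 3.30 against 217 ± 7.38 CPM) rose most, and Vldlr, the very-low-density lipoprotein receptor, fell by 1.14.

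Folate genes, beside Folr2, had 3 higher and 4 lower of 15 tested, with a median of 0.00. These counts were near the shares of all tested genes, 20.1% higher and 19.2% lower. The rises were small, as in Mtr (0.38) and Ggh (0.26, a call lost with upper-quartile factors and without cKO replicate 2), and Slc19a1, the reduced folate carrier, fell by 0.55. Both Aldh1l2 and Mthfd1l, mitochondrial enzymes of folate metabolism, were lower: Aldh1l2 fell by 2.56, and Mthfd1l, with the most reads of the list, fell by 0.79 (135.5 ± 3.91 against 78.5 ± 1.89 CPM). Of 12 hyaluronan genes, beside Lyve1, 5 were higher and 2 lower. The largest rises were those of Tnfaip6, which binds hyaluronan (0.57), the synthase Has1 (0.52) and Cemip, which helps break hyaluronan down and had the most reads (0.49, 582.8 ± 17.6 against 817.0 ± 24.7 CPM). The call of Has1 was lost without WT replicate 1, WT replicate 2 or cKO replicate 2. The synthase Has2 fell by 1.62 and Layn, a hyaluronan receptor, fell by 0.61. Of 10 genes of collectins, ficolins and the proteases that act with them, 3 had enough reads for a test, of which the ficolin gene Fcna was higher (log2 fold change 0.96) and Masp1, a protease gene, was lower (-0.53).

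Resident macrophage genes, 25 of 31 tested, had 23 higher and 1 lower, with a median of 1.83. Pf4 rose by 3.42 on the log2 scale, and Hmox1, haem oxygenase, fell by 0.31 and had the most reads of them at 1487 ± 48.6 against 1201 ± 28.2 CPM. Vsig4 and Cd163 were too low to be tested and Clec4f, Cd209f, Cd209g and Ccl24 were at 0 in every library, so some genes of resident macrophages were missing beside those that rose. The C1q genes stand in this list, in the apoptotic list and among the 18 macrophage markers, which also share Adgre1 with this list and Cd68 and Cd14 with the other scavenger receptors. Further genes are shared too, such as Lrp1 by the other scavenger receptors, the apoptotic list and the lipid list. Cd163 stands in this list and among the other scavenger receptors. The counts of these lists are therefore not separate.

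**Figure D5:**
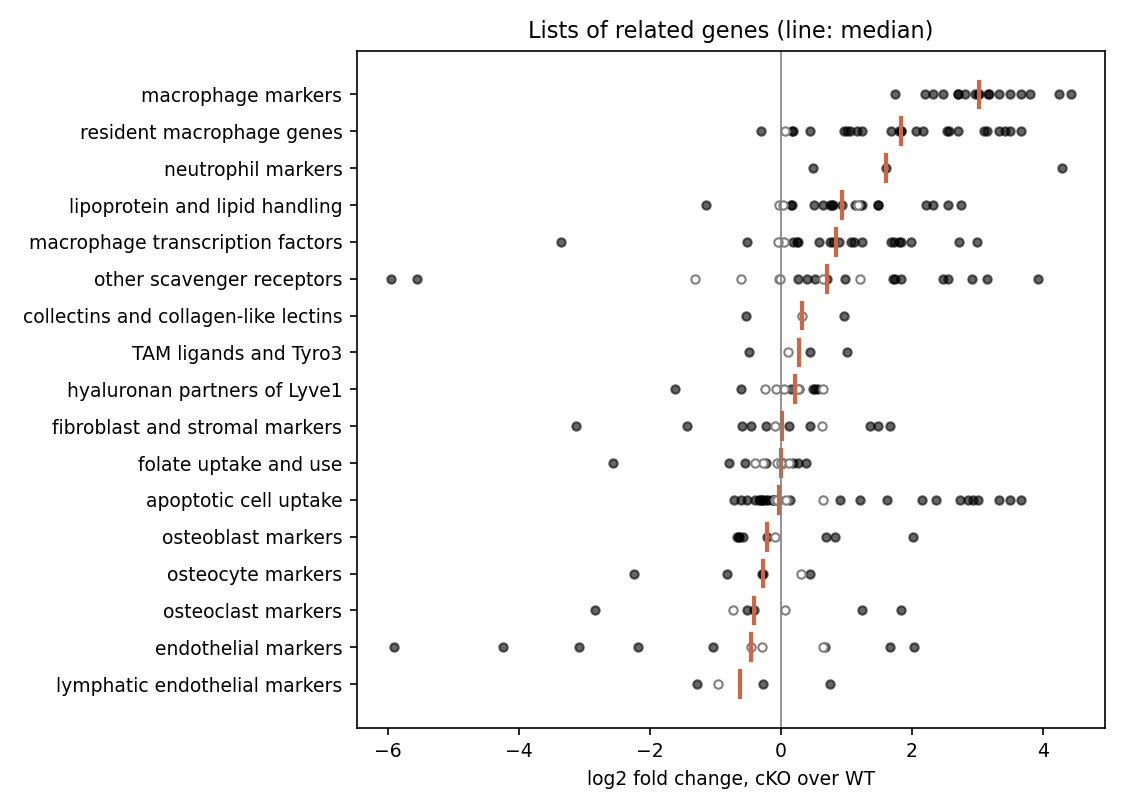
Log2 fold change (cKO-labelled over WT) of each tested gene in the gene lists with at least 3 tested genes, on the horizontal axis with 1 list per line, with filled points for genes that passed the test, open grey points for those that did not and a line at the median. Macrophage markers have the highest median, 3.02. The medians of apoptotic cell uptake and folate use lie near 0, but their genes run from -0.72 to 3.66 and from -2.56 to 0.38.

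Markers of other cell types that carry some of these receptors moved less evenly. Endothelial markers had 3 higher and 5 lower of 11 tested, with Kdr, Vwf and Erg higher and Emcn, Tek and Cdh5 among those lower. By a log2 fold change of at least 1 in size, 2 were higher and 5 lower, against 6.56% and 4.64% of all tested genes. The summed level was 19.3 ± 1.29 CPM in WT and 28.9 ± 1.85 CPM in the cKO-labelled libraries. Vwf had the most reads of the list. Fibroblast and stromal markers had 5 higher and 5 lower of 12, with large changes both ways. The chemokine gene Cxcl12 stood at 333.6 ± 32.8 against 1053 ± 12.1 CPM (log2 fold change 1.66), and Lum (1.49) and Dpt (1.35) were also higher. Postn, periostin, stood at 230.6 ± 9.27 against 26.4 ± 0.482 CPM (-3.12), and Pi16 (-1.43) and Thy1 (-0.60) were also lower. Col3a1 had the most reads of the list (7548 ± 272 against 8257 ± 347 CPM). Osteoblast markers had 3 higher and 5 lower of 9, with Ibsp (log2 fold change 2.01), Pth1r (0.82) and Alpl (0.68) higher, and Col1a1 (-0.67), Spp1 (-0.64) and Sparc (-0.63) among those lower. The part of these cells in the levels of Axl and Colec12 was not tested.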

How the data were processed

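The authors deposited 1 table of read counts per gene for the 6 libraries. Reads were aligned to mm39 with HISAT2 (2.0.5) and counted with featureCounts (1.55.0-p3), versions from the submitters' processing notes; the study's methods name another featureCounts version. The study's methods name a directional library kit. Mapping and counting were the authors' own, and whether strand was used in counting is not given in the sources used here. The gene length in the deposited table was used for RPKM. In each library 63.4 to 65.7% of counts from 1 to 10 were even, and counts halved and rounded up were one alternative.

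Genes were kept with filterByExpr, scaled with TMM and tested with edgeR (4.0.16, R 4.3.3) by the quasi-likelihood test with genotype alone, and called at a Benjamini-Hochberg adjusted p below 0.05, as for the study's limit. Intervals cover 95%. CPM are counts over the scaled library size. The script was tested on simulated data.

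The receptors and gene lists were chosen with earlier results of these data known. Counts of their members are to be read against the shares of all tested genes, 20.1% higher and 19.2% lower. In each list, up to 3 called genes that rose and up to 3 that fell with the largest change are named, with the most abundant gene; 1 gene under this rule is not reported here. Genes named as missing were chosen after their values were seen, as were Sparc and Gm10602. Alternatives were other scaling, filters, tools (DESeq2 1.42.0, limma 3.58.1), limits, a replicate block and leaving out each library, and, chosen after seeing the data, merged exon lengths for RPKM. Libraries of a genotype differed by more than sampling noise.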

Additional observations from a re-analysis of the deposited data

How the results depend on the processing

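Under the 17 alternatives run (16 for Lyve1, which was not tested with halved counts), the log2 fold change of each tested receptor kept its sign: Stab1 3.24 to 3.37, Msr1 2.72 to 2.93, Folr2 2.79 to 3.02, Mertk 2.42 to 2.54, Marco 1.05 to 1.14, Axl -0.89 to -0.77 and Colec12 -0.44 to -0.35. Scarb1 ran from -0.14 to -0.05 and passed the test only with upper-quartile factors (-0.14, adjusted p = 0.0446), a scaling that moves the median of all genes to -0.06. With a limit of 1 on the log2 fold change, 1124 genes were higher and 796 lower, none of the receptors was lower (0), and Colec12 (-0.37) and Axl (-0.82) were no longer called. Leaving out any 1 library changed no call among the receptors. Among the 200 genes tested in these lists, receptors included, no direction was reversed, and between 0 and 10 calls were lost under each alternative, apart from 13 at an adjusted p below 0.01 and 74 with the limit of 1. With upper-quartile factors Ggh was no longer called and Lrp1 was called lower (-0.10), and with library size alone Pros1 was called higher (0.13). Has1, Ptprz1 and Kcnk2 each lost their call without some single library (Has1 without WT replicate 1, WT replicate 2 or cKO replicate 2, and Ptprz1 without WT replicate 3).

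Same-numbered libraries did not deviate together (correlations -0.01, 0.00 and -0.01), so no pairing by replicate number was seen in these values. They do not show how the cultures or libraries were prepared. With the replicate block, 3298 genes were higher against 3445 without it, and 5 receptors were still higher. Depth limits Lyve1 and Timd4.

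Merged exon lengths, an alternative chosen after seeing the data, moved levels in RPKM (WT, then cKO-labelled) to 67.3 and 38.0 for Axl, 34.3 and 26.5 for Colec12, 5.69 and 5.42 for Scarb1 and 1.65 and 9.26 for Mertk, that of Lyve1 in the cKO-labelled libraries to 0.0801, and the ratio of Axl to Mertk to 40.9 and 4.12.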

Other observations

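Of 22 macrophage transcription factors, all tested, 17 were higher and 2 lower in the cKO-labelled libraries, with a median log2 fold change of 0.84. Spi1, which encodes PU.1, stood at 7.48 ± 2.11 against 59.2 ± 0.960 CPM and Irf8 at 3.48 ± 0.147 against 23.0 ± 0.109 CPM. Tfec (log2 fold change 1.99) was also higher. Bhlhe40 had the most reads of the list in WT and was lower (-0.52). In the cKO-labelled libraries Cebpb (314.9 CPM) and Runx1 (301.2 CPM) stood above Bhlhe40 (247.5 CPM). Gata6, known from peritoneal macrophages, was lower at 6.60 ± 0.546 against 0.641 ± 0.124 CPM. Among 9 osteoclast markers, 7 were tested, with Atp6v0d2 and Acp5 higher and Mmp9, Itgb3 and Ctsk lower. Of 10 neutrophil markers 3 were tested and all 3 were higher, against 20.1% of all tested genes. Csf3r stood at 0.170 ± 0.0774 against 3.32 ± 0.465 CPM and S100a8 at 1.07 ± 0.235 against 3.29 ± 0.204 CPM. Camp, whose call was lost without any 1 of 5 libraries, stood at 5.12 ± 1.45 against 7.21 ± 0.756 CPM. S100a9 and Retnlg were at 0 in every library, and Ly6g, Mpo, Elane, Ltf and Ngp were too low to be tested. No lymphocyte, erythroid or mast cell marker had enough reads for a test (0 of 11 and 0 of 10), and of 8 dendritic cell markers 2 were tested, with Itgax higher.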
